A study of Mus musculus with 6 samples.

Results

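Tgif1 and Hdac1 shared 7948 matched binding sites on chromosomes 1 to 19 of J1 mouse embryonic stem cells, and the amount of signal each protein had at a shared site was compared. A matched site is a pair of peaks, 1 from each list, whose summits were each other's nearest and lay at most 200 bp apart. The pairs took in 48.8% of the 16273 autosomal Tgif1 peaks and 48.5% of the 16398 autosomal Hdac1 peaks, out of 70533 peaks in the 5 lists of the series. Coordinates refer to the mm9 build.

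The cells contained BirA, the bacterial biotin ligase, and were grown with leukemia inhibitory factor. Chromatin was fixed with formaldehyde and Tgif1 and HDAC1 were each precipitated with an antibody, from Santa Cruz (SC9084X) and Abcam (ab7028). Nanog and Tgif2 were recovered on streptavidin beads and Smad3 with an antibody, and their peaks served only to sort the pairs. Each factor had 1 library, so no value has a replicate check, no test between factors could be made, and differences are given as descriptions. Any interval below is at 95% and covers counting error over tags or peaks, which are not replicates. The mock precipitation is not analysed here.

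Tgif1 (TG-interacting factor 1) is a homeodomain protein that represses transcription and brings corepressors with histone deacetylase activity to DNA, in part through Smad proteins. Hdac1 removes acetyl groups from histones and has no DNA-binding domain of its own. It is a catalytic subunit of the Sin3, NuRD and CoREST complexes, which reach chromatin through many DNA-binding factors. A site bound by both can therefore carry Hdac1 brought by Tgif1 or by other factors, and ChIP-seq on separate libraries does not tell these apart. Tgif2 is the paralog of Tgif1, and Nanog is a homeodomain protein that sustains pluripotency.

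Tgif1 and Hdac1 signal agreed in rank, but only moderately. The median matched Tgif1 peak held 57 tags (quartiles 42 and 83, range 30 to 1365). The median matched Hdac1 peak held 53 tags (quartiles 40 and 71, range 28 to 748). Spearman's rho between the tags of the partners was 0.53 over the 7948 pairs, 0.52 for fold enrichment and 0.53 for peak width. These are correlations across sites of 2 libraries, which may share the accessibility and mappability of each site. The 2 lists also end at minima of 30 and 28 tags, which removes pairs with little signal of either protein.

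Strong sites of one factor were seldom weak sites of the other. Of the 795 pairs in the top 10% by Tgif1 tags, 328 were also in the top 10% by Hdac1 tags (41.3%, Wilson interval 37.9 to 44.7). Only 7 of these 795 pairs were in the lowest 10% by Hdac1 tags. In the opposite direction, 9 of the 794 pairs in the lowest 10% by Tgif1 were in the top 10% by Hdac1. With each factor's tags ranked into 5 equal bins, the partners were in the same bin in 35.3% of pairs and in the same or the next bin in 73.5%. From the lowest to the highest bin of Tgif1 tags, median Tgif1 tags went from 35 to 117 and median Hdac1 tags from 40 to 77.

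**Figure D1:**
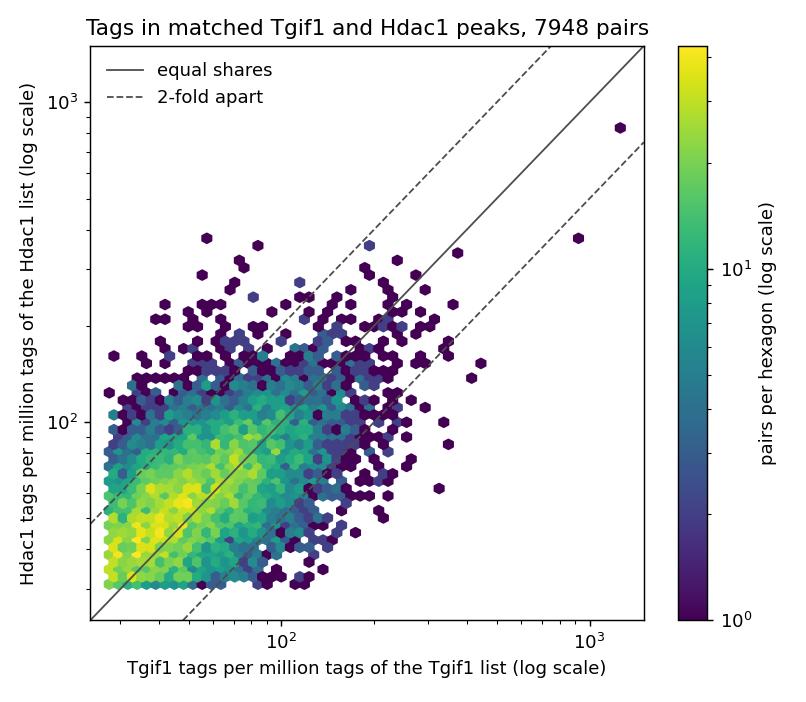
Each hexagon counts matched pairs by Tgif1 tags (horizontal) and Hdac1 tags (vertical), each per 1000000 tags of its own list, on log axes, and colour gives the number of pairs on a log scale. The cloud follows the solid line of equal shares with a wide spread (Spearman's rho 0.53), and 281 pairs lie beyond the dashed 2-fold line on the Tgif1 side and 515 on the Hdac1 side.

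To compare amounts, the tags of each peak were divided by the tag sum of its autosomal list, 1084815 for Tgif1 and 899871 for Hdac1. The log2 ratio of these shares is positive where a site takes a larger part of the Tgif1 signal and negative where it takes a larger part of the Hdac1 signal. Its median was -0.14 (interval -0.15 to -0.13), with quartiles of -0.50 and 0.24 and a range from -2.68 to 2.35. Thus 39.7% of pairs had the larger share on the Tgif1 side, although 58.8% had more raw Tgif1 than Hdac1 tags. The zero of this scale is set by the scaling. Matched peaks held 50.7% of the Tgif1 tags and 53.4% of the Hdac1 tags, and dividing by these paired sums gave a median of -0.06. Differences of median ratio between kinds of pairs do not depend on that choice, but shares of pairs past a fixed 2-fold limit do.

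The spread of the ratio exceeded what counting tags gives for a part of the pairs. For each pair an exact binomial interval of the ratio was computed from its tags, and the median interval was 1.14 wide on the log2 scale. In 1455 pairs the interval lay wholly above the median ratio of all pairs and in 1186 wholly below it, together 33.2% of pairs. For the remaining pairs the ratio could not be told from the median at this depth. Tags without molecular identifiers may include copies of the same molecule, which such an interval does not cover.

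A ratio of at least 2-fold was found on the Tgif1 side in 281 pairs, 3.54% of all pairs, and on the Hdac1 side in 515, 6.48%. The difference between the sides depends on the scaling, and with paired sums the shares were 4.62% and 5.37%. On the Tgif1 side the median pair held 128 Tgif1 and 42 Hdac1 tags, and on the Hdac1 side 41 Tgif1 and 86 Hdac1 tags. The sides differed in the other factors too. A Nanog peak overlapped 37.0% of the Tgif1-side pairs (31.6 to 42.8), 48.8% of the pairs within 2-fold and 70.9% of the Hdac1-side pairs (66.8 to 74.6). A Tgif2 peak overlapped 97.9% of the Tgif1-side pairs (95.4 to 99.0), 85.8% of those within 2-fold and 84.9% of the Hdac1-side pairs (81.5 to 87.7). Over all pairs the shares were 49.8% for Nanog and 86.2% for Tgif2. The shares also moved with the strength of 1 partner alone. Nanog overlapped 69.6% of pairs in the highest of 5 bins by Hdac1 tags and 40.2% in the lowest. Tgif2 overlapped 97.5% of pairs in the highest bin by Tgif1 tags and 66.6% in the lowest.

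Peak width went together with the ratio. Hdac1 peaks were the wider of the pair in 5743 cases (72.3%), with a median of 1077 bp against 911 bp for Tgif1. The median log2 width ratio, Tgif1 over Hdac1, was -0.21, with quartiles of -0.50 and 0.03. The tag ratio and the width ratio had a Spearman's rho of 0.69 over the 7948 pairs. They share the peak interval, because tags are counted inside each factor's own peak. Among the matched peaks, tags and width had a rho of 0.75 for Tgif1 and 0.78 for Hdac1. On the Hdac1 side of 2-fold, the Hdac1 peak was the wider one in 512 of 515 pairs, with medians of 1597 and 733 bp. On the Tgif1 side, the Tgif1 peak was the wider one in 232 of 281 pairs, with medians of 1555 and 942 bp.

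**Figure D2:**
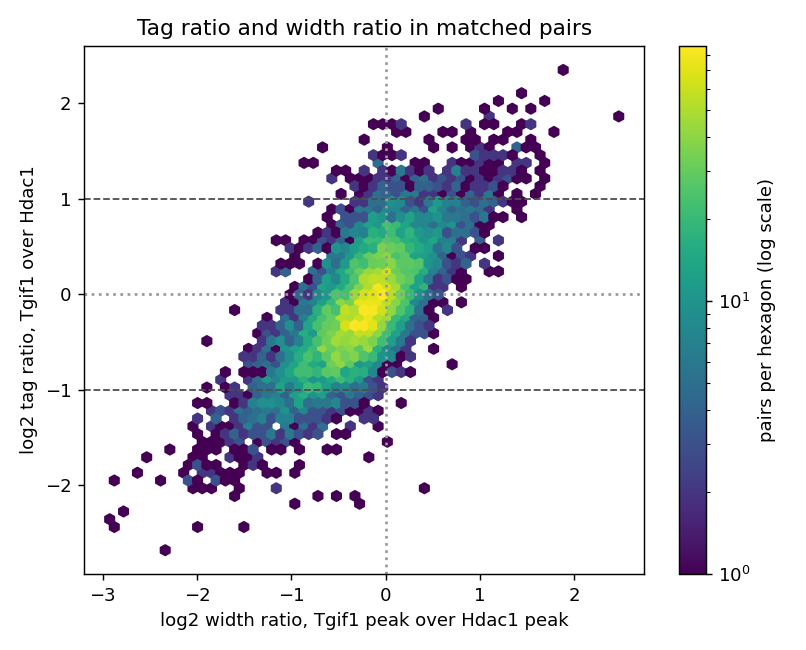
Each hexagon counts matched pairs by the log2 ratio of peak widths (horizontal) and of tags (vertical), Tgif1 over Hdac1, with colour on a log scale and dashed lines at 2-fold. Pairs with a relatively wide Hdac1 peak lie at the lower left, and the Spearman's rho is 0.69.

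Counting tags per kb of peak removed most of the pairs with an excess of Hdac1. By tags per kb, 191 pairs (2.4%) were at least 2-fold on the Tgif1 side and 27 (0.34%) on the Hdac1 side. Of the 281 Tgif1-side pairs, 83 remained past 2-fold by this measure, and 247 kept a ratio above 0. Of the 515 Hdac1-side pairs, 22 remained past 2-fold and 353 kept a ratio below 0. Pairs with a large Hdac1 excess by tags were thus mostly pairs with a broad Hdac1 peak, and few had the same excess per length. The median ratio by tags per kb was 0.088, against -0.14 by tags, and so had the opposite sign. The fixed 2-fold limit thus lay farther from the median on the Hdac1 side and nearer to it on the Tgif1 side. The counts of 27 and 191 include this move of the median. Among the 4130 pairs with a log2 width ratio within 0.32 of 0 (52.0% of pairs), the median tag ratio was 0.00043, and the partners' tags had a rho of 0.74.

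Pairs on the Tgif1 side with the highest ratios had Tgif1 peaks of 2207 to 3743 bp and narrower Hdac1 peaks of 771 to 1465 bp. They were taken from the pairs with mean signal at or above the median. At chr12:86812958-86816701 the Tgif1 peak held 350 tags over 3743 bp, against 57 Hdac1 tags over 1011 bp. Its ratio was 2.35 (counting interval 1.94 to 2.78), or 5.09-fold, with summits 52 bp apart. The next, at chr17:71177359-71179982, had 228 Tgif1 and 44 Hdac1 tags, a ratio of 2.10 (1.63 to 2.60), and overlapped Nanog, Tgif2 and Smad3. At chr10:126725266-126728574 there were 388 Tgif1 and 78 Hdac1 tags, a ratio of 2.04 (1.69 to 2.41). This was the one site of the 5 without a Nanog peak, and all 5 had a Tgif2 peak. The others were chr2:180687431-180689901 with a ratio of 1.98 and chr17:88839482-88841689 with a ratio of 1.97. All 5 kept a positive ratio by tags per kb, from 0.30 to 0.87, and none of the 5 reached 2-fold by that measure.

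At the lowest ratios, a narrower Tgif1 peak lay inside a wider Hdac1 peak, which spanned 2131 to 4162 bp at 4 of the 5 sites and 1246 bp at the other. At chr4:146685313-146686122 the Tgif1 peak held 64 tags over 809 bp, inside an Hdac1 peak of 341 tags over 4162 bp. Its ratio was -2.68 (-3.09 to -2.29), or 6.42-fold toward Hdac1, although the summits were 3 bp apart. At chr7:123452921-123453410 there were 41 Tgif1 and 189 Hdac1 tags and the ratio was -2.47, but by tags per kb it was 0.42, on the Tgif1 side. The site chr4:145105659-145106061 turned in the same way, from -2.40 to 0.53. The remaining 2 sites stayed on the Hdac1 side by both measures, as did the first site, with -0.32 by tags per kb. These 2 are given with both ratios. They were chr4:150978586-150979027, the site with the 1246 bp Hdac1 peak, with 47 Tgif1 and 212 Hdac1 tags (ratios of -2.44 and -0.94), and chr3:156983890-156984443, with 32 and 143 tags (-2.43 and -0.48). All 5 overlapped Tgif2, and 4 of the 5 overlapped Nanog, the exception being chr4:150978586-150979027. Its Hdac1 peak had a fold enrichment of 76.9 in the authors' list, against 35.6 for Tgif1.

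The 100 pairs with the highest mean signal had a median ratio of 0.19, with quartiles of -0.28 and 0.60, and 11 of them were at least 2-fold toward Tgif1 and 4 toward Hdac1. The pair with the most signal lies on chromosome 18 and is not described here. It was followed by chr17:3081378-3084981, with 1034 Tgif1 and 336 Hdac1 tags and a ratio of 1.35 (1.17 to 1.53). The next, chr8:19860511-19863920, had 407 and 299 tags, a ratio of 0.18 (-0.04 to 0.40), and no Nanog or Tgif2 peak. Its fold enrichments, 7.68 for Tgif1 and 8.11 for Hdac1, were below the medians over all pairs, 14.8 and 11.1. The sites chr11:3023220-3024710, with 387 and 206 tags, and chr1:120971401-120973892, with 295 and 267 tags, had ratios of 0.64 and -0.13. The latter carried Nanog, Tgif2 and Smad3. At chr11:117836539-117838224, with 224 Tgif1 and 184 Hdac1 tags, the ratio of 0.01 was the nearest to 0 among these 100 pairs. In 24 of these 100 pairs, both fold enrichments were below their medians over all pairs, and over all pairs tags and fold enrichment had a rho of only 0.27 for Tgif1 and 0.068 for Hdac1. The tag ratio and the fold ratio had a rho of 0.64. Genes and sequences at these sites were not analysed here.

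Pairs with a Nanog peak were shifted toward Hdac1. A Nanog peak overlapped 3960 pairs and was absent from 3988. The median ratio was -0.23 (-0.25 to -0.20) with Nanog and -0.06 (-0.08 to -0.04) without it, a shift of -0.17. In tags the difference was on the Hdac1 side, with 59 median Hdac1 tags with Nanog and 49 without it. Median Tgif1 tags were 58 and 56. In width it was on the Tgif1 side, with medians of 875 bp with Nanog and 950 bp without it. Median Hdac1 widths were 1076 and 1078.5 bp. A ratio of at least 2-fold toward Hdac1 was found in 9.22% of pairs with Nanog (8.36 to 10.2) and in 3.76% without (3.21 to 4.40), against 6.48% of all pairs. Toward Tgif1 the shares were 2.63% and 4.44%, against 3.54% of all pairs. The quartiles overlapped widely, at -0.61 and 0.15 with Nanog and -0.38 and 0.33 without it, so the shift is a property of the sets and says little of a single site.

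Pairs with a Tgif2 peak were shifted toward Tgif1. A Tgif2 peak overlapped 6849 pairs (86.2%). Their median ratio was -0.10 (-0.12 to -0.09), against -0.31 (-0.32 to -0.27) in the 1099 pairs without Tgif2, a shift of 0.20. Both factors had more tags where Tgif2 was present, 61 against 40 for Tgif1 and 55 against 43 for Hdac1. A ratio of at least 2-fold toward Tgif1 was found in 4.02% of pairs with Tgif2 (3.58 to 4.51) and in 0.55% without it (0.25 to 1.19). Toward Hdac1 the shares were 6.38% and 7.10%, with overlapping intervals.

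The shifts appeared side by side in the 4 kinds of pair. The 631 pairs with Nanog and no Tgif2 had the lowest median ratio, -0.38, with 40 Tgif1 and 45 Hdac1 tags, and only 1 of them was at least 2-fold toward Tgif1. The 3520 pairs with Tgif2 and no Nanog had the highest, -0.03, with 59 Tgif1 and 50 Hdac1 tags. The 3329 pairs with both factors had a median of -0.19, with 64 and 62 tags. The 468 pairs with neither had a median of -0.18, with 41 and 39 tags, so both of these kinds had a like median at different strengths. This did not hold for strength in general. Over all pairs, the median ratio was -0.23 in the weakest of 5 bins by mean signal and 0.05 in the strongest. The Nanog shift was -0.16 among pairs with Tgif2 and -0.20 among pairs without it. The Tgif2 shift was 0.19 among pairs with Nanog and 0.15 among pairs without it. By tags per kb the medians were -0.08 for Nanog without Tgif2, 0.14 for Tgif2 without Nanog, 0.07 for both and 0.02 for neither.

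**Figure D3:**
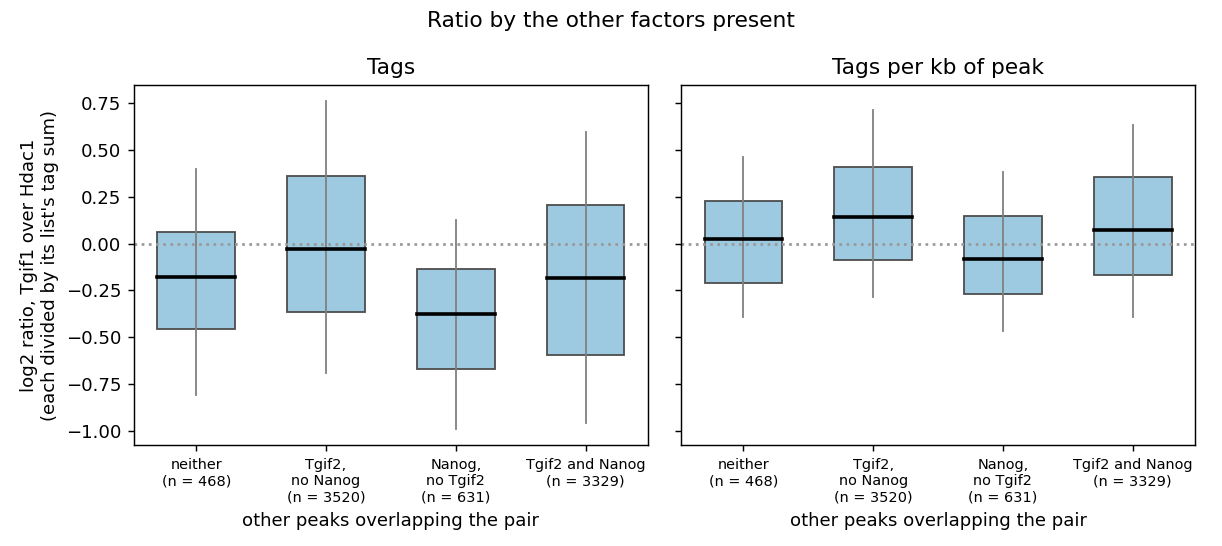
The log2 ratio of Tgif1 over Hdac1 is shown by tags (left) and by tags per kb of peak (right) for pairs sorted by overlapping Tgif2 and Nanog peaks. Black lines are medians, boxes quartiles and thin lines the 10th to 90th percentile, and the order of the kinds is the same for both measures except for the pairs with both and with neither, whose medians by tags are -0.19 and -0.18.

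Both shifts kept their sign on every autosome. The median ratio was below 0 on 19 of 19 chromosomes, from -0.19 on chromosome 6 to -0.04 on chromosome 17. The Nanog shift was negative on 19 of 19, from -0.30 on chromosome 3 to -0.08 on chromosome 5. The Tgif2 shift was positive on 19 of 19, from 0.05 on chromosome 12 to 0.32 on chromosome 10. The pairs without Tgif2 were few on some chromosomes, with 26 on chromosome 18. By tags per kb, the Nanog shift was negative on 18 chromosomes and positive on chromosome 19, at 0.03. The Tgif2 shift by this measure was positive on 18 and negative on chromosome 13, at -0.02. The rank correlation of tags ran from 0.41 on chromosome 3 to 0.62 on chromosome 1. Chromosomes come from the same 2 libraries and are not replicates.

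**Figure D4:**
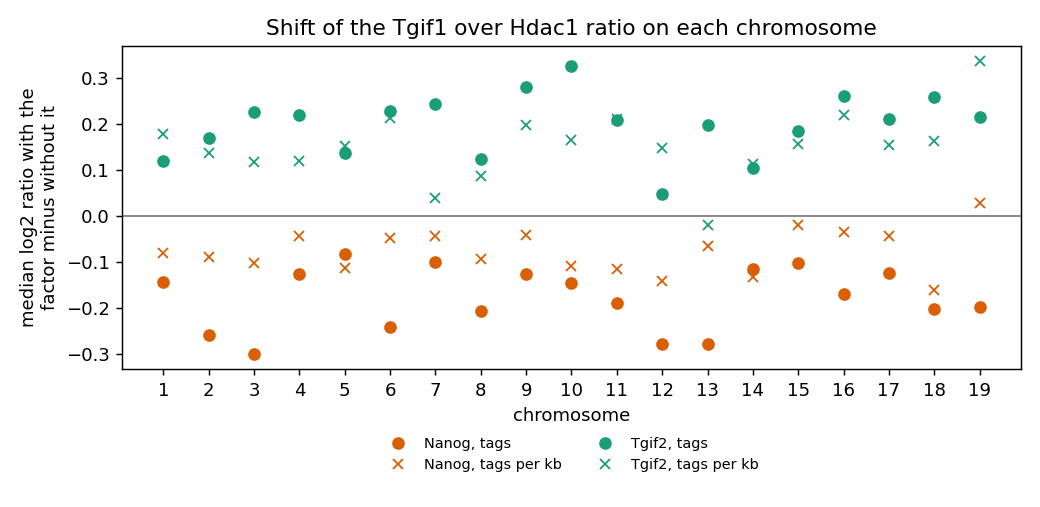
For each chromosome, points give the median log2 ratio of pairs with the factor minus that of pairs without it, by tags (circles) and by tags per kb (crosses). Circles for Nanog lie between -0.30 and -0.08 and circles for Tgif2 between 0.05 and 0.32, whereas 1 cross of each factor lies across 0.

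Signal strength and peak width moved with both shifts. By tags per kb the Nanog shift was -0.081 and the Tgif2 shift 0.15. The median log2 width ratio was -0.26 with Nanog and -0.17 without it, and -0.20 with Tgif2 and -0.28 without it. Within 5 equal bins of the width ratio, the Nanog shift ranged from -0.19 to -0.03 and was negative in 5 of 5, and the Tgif2 shift ranged from 0.06 to 0.36. Within 5 bins of mean signal the Nanog shift ranged from -0.32 to -0.04 and the Tgif2 shift from 0.03 to 0.33, and the weakest bin had the smallest shift for both. The list minima limit how far the ratio can vary in that bin, whose partners had medians of 36 and 35 tags. Whether this made its shifts smaller was not tested.

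Binning the pairs by the signal of one factor gave different pictures for Nanog and Tgif2. Within 5 bins of Tgif1 tags, the Nanog shift was negative in 5 of 5, from -0.30 to -0.12, and within 5 bins of Hdac1 tags it was negative in 5 of 5, from -0.17 to -0.07. The Tgif2 shift was positive in 5 of 5 bins of Hdac1 tags, from 0.16 to 0.58. Within bins of Tgif1 tags, by contrast, it was -0.096 and -0.092 in the lowest 2 bins, 0.02 and 0.04 in the next 2, and 0.23 in the highest, where only 40 pairs lacked Tgif2. With Tgif1 tags only roughly alike within a bin, the presence of Tgif2 thus went with a small shift toward Hdac1 in the lowest 2 bins. Those bins held 531 and 309 of the 1099 pairs without Tgif2. In the next 2 bins there was little shift. Each of these splits uses a part of the ratio and is given as a description.

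The amount of Nanog and Tgif2 signal ordered the ratio as well. Among the 3960 pairs with Nanog, sorted into 5 bins by the tags of the Nanog peak, the median ratio went from -0.13 at a median of 20 Nanog tags to -0.37 at 166. Median Hdac1 tags went from 49 to 78 and median Tgif1 tags from 52.5 to 71. Across these pairs Nanog tags had a rho of 0.34 with Hdac1 tags and of 0.19 with Tgif1 tags. Among the 6849 pairs with Tgif2, the median ratio went from -0.30 at 41 Tgif2 tags to 0.24 at 139. Tgif2 tags had a rho of 0.65 with Tgif1 tags and of 0.43 with Hdac1 tags. By tags per kb the range was smaller for Nanog, from 0.08 to -0.003, than for Tgif2, from -0.01 to 0.31.

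**Figure D5:**
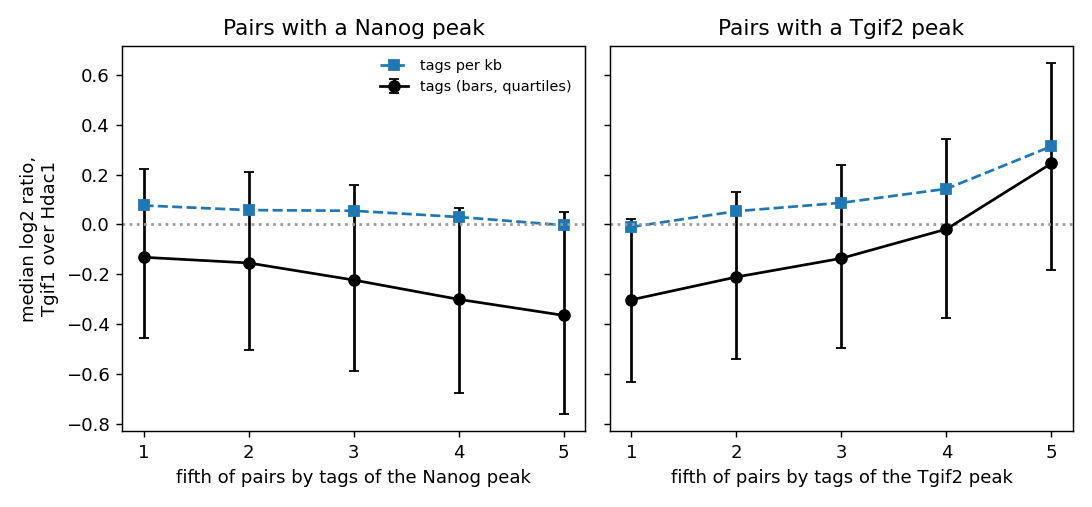
Points give the median log2 ratio of Tgif1 over Hdac1 by tags (black, bars from the lower to the upper quartile) and by tags per kb (blue) in 5 bins of pairs ordered by the tags of the overlapping Nanog peak (left) or Tgif2 peak (right). By tags the medians go from -0.13 to -0.37 with Nanog and from -0.30 to 0.24 with Tgif2.

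At the same sites, Tgif1 tags followed those of its paralog more closely in rank than those of Hdac1, without matching for peak width or depth. For 5877 of the pairs, the Tgif1 summit was also matched to a Tgif2 summit by the same rule. There, Tgif1 tags had a rho of 0.67 with Tgif2 tags and of 0.51 with Hdac1 tags, and Tgif2 with Hdac1 had 0.43. The tag ratio of Tgif1 and Tgif2 was at least 2-fold either way in 397 sites (6.76%, 6.14 to 7.43), and that of Tgif1 and Hdac1 in 591 (10.1%, 9.31 to 10.9). Both ratios contain the Tgif1 library. Median widths over the lists were 934 bp for Tgif1, 945 bp for Tgif2 and 1039 bp for Hdac1. Tag sums were 1338165 for Tgif2 and 899871 for Hdac1. Among the 4130 Tgif1 and Hdac1 pairs with a log2 width ratio within 0.32 of 0, rho was 0.74. Tgif1 and Tgif2 were not compared this way. Over all matched summits of other lists, rho of tags was 0.66 for 10207 Tgif1 and Tgif2 pairs and 0.36 for 6325 Nanog and Hdac1 pairs.

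Distance between the summits made little difference to the ratio. The median distance was 39.5 bp, and the Hdac1 summit lay on the side of higher coordinates in 3934 pairs and of lower coordinates in 3950. The 1122 pairs at most 10 bp apart had a median ratio of -0.15, and the 1307 pairs more than 100 bp apart one of -0.13. Just inside the limit, in its last 20 bp, 188 pairs had a median ratio of -0.05 with 60 Tgif1 and 51 Hdac1 tags. Just outside it, up to 250 bp, 352 pairs had -0.04 with 59 and 52 tags.

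Peaks without a partner differed between the lists. Of the Tgif1 peaks, 5469 (33.6%) overlapped no Hdac1 peak and had a median of 46 tags, and 2856 (17.6%) overlapped one without a matched summit and had 64 tags over a median of 1126.5 bp. Of the Hdac1 peaks, 5777 (35.2%) overlapped no Tgif1 peak and had a median of 38 tags, and 2673 (16.3%) overlapped one without a match and had 57 tags over 1304 bp. The matched share of Hdac1 peaks went from 28.8% in the lowest of 5 bins by tags to 63.6% in the highest. For Tgif1 peaks it went from 39.1% in the lowest bin to 54.1% in the fourth and 53.1% in the highest.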

How the data were processed

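The 5 deposited peak lists have no header. Per the submitters' processing notes, the authors used the mm9 build with BWA 0.5.9-r16 and MACS. The MACS version, the control, the threshold and library depth are not given in the sources used here. The deposited whole number per peak was read as its tag count, not normalized, and the deposited value with 2 decimals as its fold enrichment, a ratio to background. Coordinates are printed as deposited. Peaks off chromosomes 1 to 19 were left out, 127 for Tgif1 and 108 for Hdac1.

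Mutually nearest summits at most 200 bp apart were paired. Each tag count was divided by its list's sum over chromosomes 1 to 19. For the fold ratio, each fold enrichment was divided by its list's median, 13.3 for Tgif1 and 10.65 for Hdac1. The zero of the fold ratio is thus set otherwise than that of the tag ratio. A pair carried another factor when its peak overlapped either partner by at least 1 bp. Intervals are Wilson (shares), binomial order statistics (medians) and exact Clopper-Pearson (single ratios). Named sites were the 5 highest and 5 lowest ratios among pairs at or above the median mean signal, the 5 with the highest mean signal and the ratio nearest 0 among the top 100, leaving out chromosome 18. Pairing was tested on copies of Tgif1 peaks with moved summits. Pairing and overlap were also checked by exhaustive search on chromosome 19 only. The pairing rule, members and comparisons were chosen with earlier results of these data known. Planned steps on sequence and genes were not run, since the reference tables used another build. Computation used SciPy 1.17.1, pandas 2.3.3, NumPy 2.4.6 and statsmodels 0.14.6 in Python 3.11.15, and matplotlib 3.10.9 drew the plots.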

Additional observations from a re-analysis of the deposited data

How the results depend on the processing

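Library depth was not known, and the tags of single pairs set wide intervals. The sign of the median ratio (-0.14) depended on the measure. It was 0.088 by tags per kb and 0.052 by fold enrichment, with each fold divided by its list's median. In pairs of like width, the 4130 with a log2 width ratio within 0.32 of 0, it was 0.00043. It stayed negative at -0.10 with peak midpoints, -0.064 with paired sums and -0.030 with both peaks at or above the median tags of their list. Those 3481 pairs gave a rank correlation of 0.37, against 0.53 over all pairs. It was 0.51 at 50 bp, 0.62 with midpoints, 0.47 by tags per kb, 0.74 in pairs of like width and 0.55 in pairs whose peaks each overlap 1 peak of the other list, an alternative chosen after seeing the data.

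The Nanog shift was negative and the Tgif2 shift positive in all 14 alternatives that can change them. The remaining one, division by paired sums, moves every pair equally and leaves both as they are. Not counted among the alternatives were the 5 bins of Tgif1 tags, where the Tgif2 shift was negative in 2. The Nanog shift of -0.17 moved to -0.081 by tags per kb, -0.083 in pairs of like width and -0.13 averaged within 25 cells of strength and width, chosen after seeing the data. The Tgif2 shift of 0.20 moved to 0.15 by tags per kb, 0.26 by fold, 0.15 with both peaks at or above the median, 0.13 when the Tgif2 summit had to lie within 200 bp of the Tgif1 summit and 0.17 within the 25 cells. Of these cells, 9 held fewer than 20 pairs without Tgif2.

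The share of pairs past 2-fold toward Tgif1 (3.54%) was 2.20% with midpoints, 9.39% by fold and 2.23% in pairs of like width. Toward Hdac1 (6.48%) it was 3.35% with midpoints, 0.340% by tags per kb, 3.18% by fold, 3.53% with both peaks at or above the median and 0.678% in pairs of like width. By fold, with each value divided by its list's median, the Tgif1 side was thus the larger. With paired sums the shares were 4.62% toward Tgif1 and 5.37% toward Hdac1, a smaller difference between the sides. At 50 bp, 4677 pairs remained. The other alternatives, such as adding chromosome X, leaving out chromosome 1 or leaving out the 1% of pairs with the most tags, changed none of these values beyond its interval, or beyond 1.5 times for counts and shares. No paired analysis was possible because each factor had 1 library.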

Other observations

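Smad3, a receptor-activated effector of TGF-beta and Activin signaling, had a peak at 672 of the Tgif1 and Hdac1 pairs, and 661 of these also had a Nanog peak. This split was added after the data were seen. Pairs with Smad3 were strong in both factors, with medians of 70 Tgif1 and 78 Hdac1 tags against 56 and 52 in the 7276 pairs without it. Their median log2 ratio was -0.41 (-0.48 to -0.35) against -0.12, and 14.1% of them were at least 2-fold toward Hdac1, against 6.48% of all pairs. Among the pairs with Nanog, those with Smad3 were shifted by -0.22 by tags and by -0.02 by tags per kb. The Hdac1 peaks of pairs with Smad3 had a median width of 1214.5 bp, against 1067 bp without it, and the Tgif1 peaks 891 and 913 bp.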
